A study of Mus musculus with 70 samples.

Results

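The liver transcriptome of adult male mice was compared between the middle of the dark phase and the middle of the light phase, that is, zeitgeber time (ZT) 17 against ZT5 at 16 weeks of age. ZT counts the hours after lights on. The comparison used 12 of the 70 libraries of the series, 6 mice at each time, chosen by their labelled age and time. All 12 mice were wild-type C57BL/6 males on standard chow since birth. In each group of 6, 3 mice were born to mothers on a control diet (Ctr, AIN-93G) and 3 to mothers on a high-fat diet (HFD, D12492) before and during pregnancy, and maternal diet was a covariate in the fit. The series asked how maternal obesity changes the daily rhythms of the offspring. It sampled livers of separate mice at 6 ZTs and 2 ages (4 and 16 weeks). As the study describes it, mice of a group came from different litters. Each mouse gave 1 liver at 1 time, so differences between times are differences between animals. What the mice had eaten before collection, and their activity, were not part of the counts.

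In mice, which feed mostly at night, ZT5 falls in the rest and fasting phase and ZT17 in the active and feeding phase. The liver clock is a transcription loop. BMAL1 (encoded by Arntl) and CLOCK activate the Per, Cry and Rev-erb (Nr1d) genes through E-box sequences, PER and CRY proteins repress that activation, and REV-ERB and ROR proteins compete at ROR elements (RRE) in genes such as Arntl, Cry1 and Nfil3. Feeding, insulin, body temperature and glucocorticoids act on the same tissue with daily rhythms of their own, among them SREBP-driven lipid synthesis, HSF1-driven chaperones and fasting-linked fat oxidation.

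Transcript levels at ZT17 and ZT5 differed widely. Of 17545 genes tested, 3518 (20.1%) passed an adjusted p below 0.05 with edgeR's quasi-likelihood test, 1689 higher at ZT17 (9.63% of genes tested) and 1829 lower (10.4%). A change of at least 1 on the log2 scale was reached by 692 of them (3.94%), 315 higher and 377 lower, and a change of at least 4-fold by 77 higher and 98 lower genes. For 1847 genes (10.5%) the values of the 6 mice at one time all lay above those of the 6 mice at the other. The first principal component held 26.6% of the variance and separated the times, with scores from 28.6 upward at ZT17 and from -24.5 downward at ZT5. The median log2 fold change over all genes was -0.02, so rises and falls are given relative to a centre near 0.

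Library totals lay between 15004280 and 17710981 counts. The share of counts held by the 10 most abundant genes was higher at ZT17 (19.6% to 21.8%) than at ZT5 (16.4% to 20.1%), by a two-sided exact permutation test within diets (p = 0.035). Mitochondrially encoded transcripts took 6.16% to 8.33% at ZT17 and 4.82% to 6.88% at ZT5 (exact permutation p = 0.09). Hepatocyte markers were abundant in every library. Alb (albumin) had 49780 to 85890 CPM at ZT5 (median 80430) and 67990 to 95550 CPM at ZT17 (median 84730), and 0 of 6 hepatocyte markers passed the test (1 rose without HFD ZT5 replicate 3). Markers of skeletal muscle, and all but 1 marker each of adipocytes and exocrine pancreas, were under the filter on low counts. On the second component, the libraries of Ctr ZT5 replicate 2 (score 48.6) and HFD ZT5 replicate 3 (-37.4) lay farthest apart, so the spread within ZT5 was wide. Without the first, 3190 genes passed, and without the second, 3644. In bulk tissue, fewer cells of a type and less RNA per cell cannot be told apart. Throughout, levels are CPM, the counts divided by the library total and scaled by TMM factors, which compare a gene between libraries and not different genes with each other. A log2 fold change is ZT17 against ZT5 with its standard error.

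The promoters of 4 genes of this contrast show elements through which the clock and the heat-shock response are known to act. Sequences are from RefSeq (GRCm38.p6), 5′ to 3′ on the strand of the gene, and end at the base before the RefSeq start. The start lay 10 bases from the start of the gene in the count table for Cry1, 16 bases for Hspe1 and 0 for Per3 and Hspa1b. Cry1 (chr10:85185055-85185169, minus strand) shows an E-box, Per3 (chr4:151044666-151044885, minus strand) a pair of D-boxes, and Hspa1b (chr17:34959239-34959388, minus strand) and Hspe1 (chr1:55088033-55088147, plus strand) a heat shock element, each in capitals.
Cry1: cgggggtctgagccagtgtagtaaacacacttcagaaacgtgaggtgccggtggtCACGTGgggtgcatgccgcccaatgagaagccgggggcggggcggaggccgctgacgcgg
Per3: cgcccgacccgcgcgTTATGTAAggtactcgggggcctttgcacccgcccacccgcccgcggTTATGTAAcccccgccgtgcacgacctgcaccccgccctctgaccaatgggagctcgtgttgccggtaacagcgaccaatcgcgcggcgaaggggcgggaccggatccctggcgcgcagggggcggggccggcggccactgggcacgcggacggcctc
Hspa1b: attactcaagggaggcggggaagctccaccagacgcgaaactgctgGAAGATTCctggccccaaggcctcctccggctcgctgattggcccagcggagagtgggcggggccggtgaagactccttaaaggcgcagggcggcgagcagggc
Hspe1: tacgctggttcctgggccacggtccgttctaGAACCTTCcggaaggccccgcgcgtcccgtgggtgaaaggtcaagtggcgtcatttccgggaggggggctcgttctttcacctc
The letters searched were CACGTG for the E-box, TTATGTAA for the D-box, TAGGTCA for the core of an RRE, GAANNTTC for a pair of heat shock units and TCACNCCAC for a sterol element, on both strands of the 250 bases before the start, for the 10995 of 14093 protein-coding genes tested that had a matching RefSeq promoter. An E-box stood in 8.07% of these promoters, a D-box in 0.564%, an RRE core in 1.86%, a heat shock unit pair in 5.15% and a sterol element in 1.01%. Of 21 clock genes and outputs with a promoter, 6 held the E-box (Per1, Cry1, Ciart, Bhlhe41, Tef and Lonrf3). Cry1 and Lonrf3 were called in this contrast, and Per1, Ciart, Bhlhe41 and Tef were not. The D-box was found in Per3 alone of the 21, at 205 and 158 bases before its start. RRE cores were found in Nfil3 and Leo1. The heat shock pair was found in 4 of 10 promoters of the HSF1 list (Hspa1a, Hspa1b, Dnaja1 and Hspe1), and the sterol element in 1 of 17 promoters of the cholesterol list, that of Hmgcs1, which was not called (adjusted p = 0.142). Genes called higher and lower at ZT17 held an E-box in 9.74% and 9.51% of promoters. A match is a run of letters and was not tested as a binding site.

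**Figure D1:**
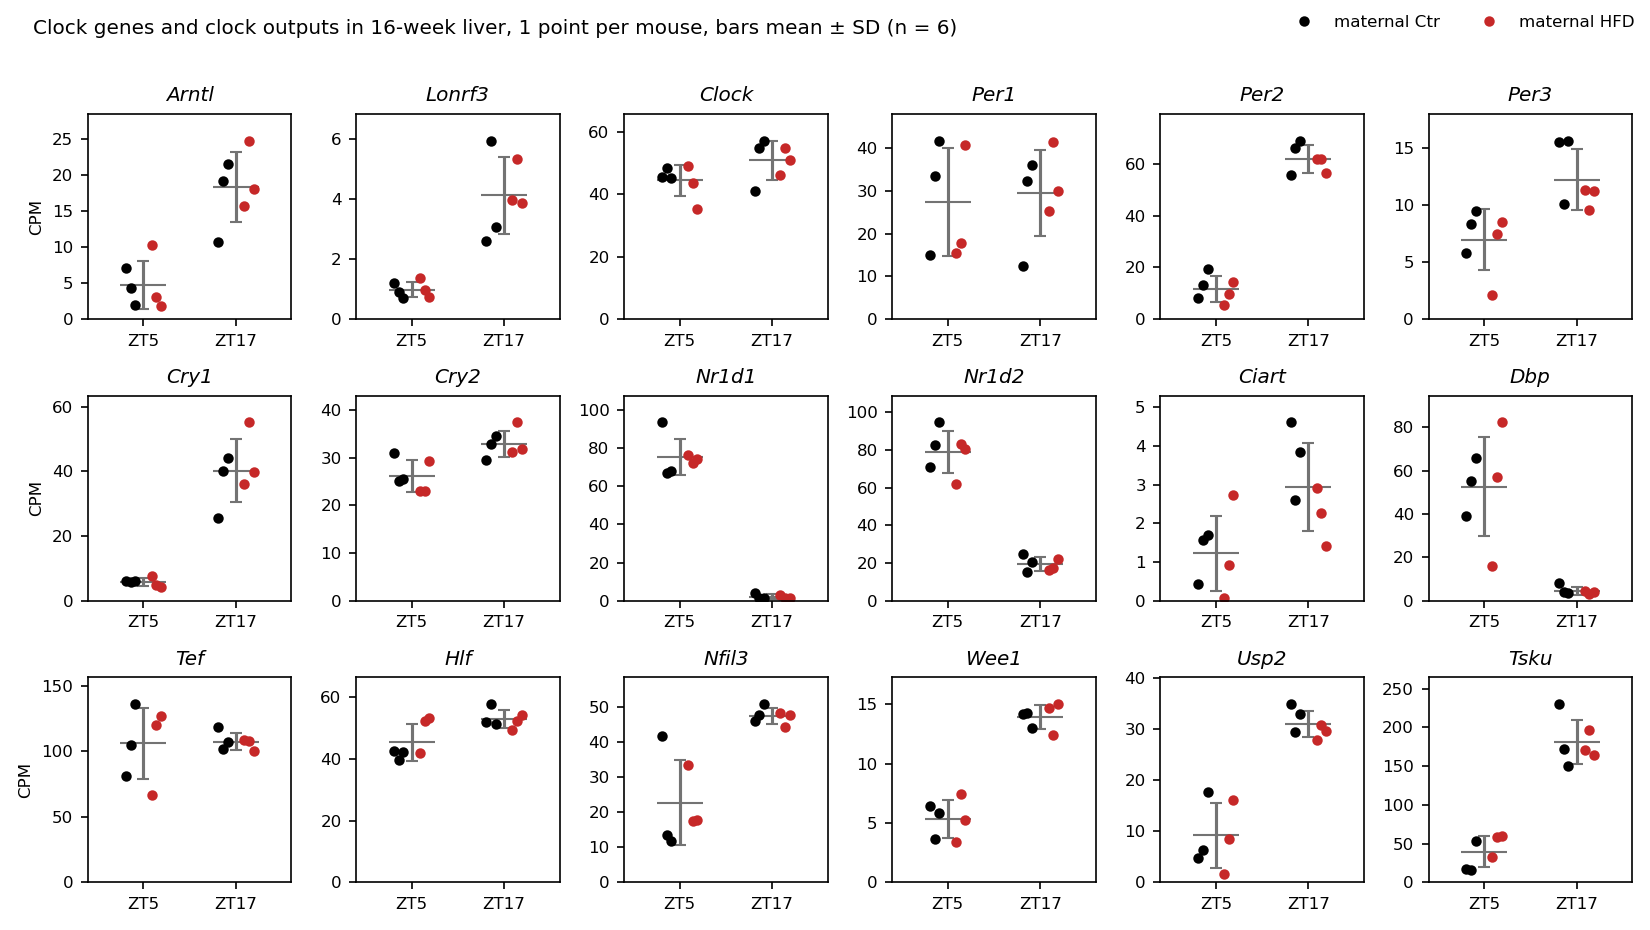
Levels (CPM, linear axes from 0) of 18 clock genes and clock outputs at ZT5 and ZT17, 1 point per mouse, black for Ctr and red for HFD offspring, with the mean and SD of 6 mice in grey. Lonrf3, Per2, Cry1, Wee1 and Tsku lay higher at ZT17 in all mice, and Nr1d1, Nr1d2 and Dbp lower, while Clock, Per1 and Tef overlapped.

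The clock repressors were led by opposite changes of the Rev-erb and Cry genes. Nr1d1 encodes REV-ERBα, the repressor of Arntl (chr11:98767932-98775333, minus strand), and had 67 to 93.4 CPM at ZT5 (median 73.2) and 1.17 to 4.28 CPM at ZT17 (median 1.53). Every ZT5 mouse lay far above every ZT17 mouse, and it was the largest fall of the genes named here, 34.8-fold (log2 fold change -5.12 ± 0.23, adjusted p = 3.44e-10). The gene overlaps Thra, so reads could be split between them where counting did not use the strand. Its paralog Nr1d2 (REV-ERBβ) had 61.9 to 94.7 CPM at ZT5 (median 81.6) and 15.4 to 25.1 CPM at ZT17 (median 19.1), again with no overlap (log2 fold change -2.02 ± 0.12, adjusted p = 1.12e-08). Cry1, a repressor of CLOCK and BMAL1 (chr10:85131700-85185064, minus strand), had 4.34 to 7.63 CPM at ZT5 (median 5.84) and 25.6 to 55.2 CPM at ZT17 (median 40.0). The lowest ZT17 mouse was above the highest ZT5 mouse more than 3-fold, and the gene rose 6.88-fold (log2 fold change 2.78 ± 0.16, adjusted p = 8.89e-09). Cry2, its paralog, differed much less. It had 23 to 30.9 CPM at ZT5 (median 25.3) and 29.6 to 37.4 CPM at ZT17 (median 32.3), with overlapping groups (log2 fold change 0.33 ± 0.09, adjusted p = 0.0168).

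Of the Period genes, which encode the partners of CRY, Per2 had the largest rise. Its levels were 5.51 to 19.5 CPM at ZT5 (median 11.4) and 55.6 to 69 CPM at ZT17 (median 62) (log2 fold change 2.41 ± 0.20, adjusted p = 3.19e-07). The 6 ZT17 mice lay close together and the groups did not overlap. Per3 had 2.11 to 9.48 CPM at ZT5 (median 7.91) and 9.59 to 15.7 CPM at ZT17 (median 11.3), with a narrow gap between the groups (log2 fold change 0.82 ± 0.23, adjusted p = 0.0176). It overlaps Camta1. Per1 was spread widely at both times, with 15.1 to 41.8 CPM at ZT5 (median 25.6) and 12.4 to 41.5 CPM at ZT17 (median 31.1), and did not pass (log2 fold change 0.11 ± 0.29, adjusted p = 0.839). Ciart (CHRONO), a further repressor, was low, with 1.24 CPM at ZT5 and 2.77 CPM at ZT17 in the median, and did not pass (log2 fold change 1.25 ± 0.45, adjusted p = 0.0625). It passed in some other settings, among them without HFD ZT5 replicate 3 (adjusted p = 0.00449) and with all 36 libraries of the age (0.0109). Bhlhe40 and Bhlhe41 (DEC1 and DEC2) did not pass either, at log2 fold changes of 0.38 and -0.68.

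Among the activators, 2 of 5 genes rose (40% against 9.63%) and 0 fell. Arntl (BMAL1) had 1.87 to 10.3 CPM at ZT5 (median 3.62) and 10.7 to 24.7 CPM at ZT17 (median 18.6). The highest ZT5 mouse, an HFD mouse, lay just under the lowest ZT17 mouse, and the fitted rise was 3.79-fold (log2 fold change 1.92 ± 0.33, adjusted p = 4.54e-04). Its partner Clock had 35.3 to 49.1 CPM at ZT5 (median 45.3) and 40.9 to 57.1 CPM at ZT17 (median 52.9), with overlapping groups (log2 fold change 0.19 ± 0.10, adjusted p = 0.196, and 0.0477 without Ctr ZT17 replicate 1). Rora (RORα) and Npas2, which can stand in for CLOCK, did not pass, with log2 fold changes of 0.08 and -0.66.

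The D-box factors and outputs held both the strongest fall after Nr1d1 among clock genes and 6 rises. Dbp encodes an activator at D-boxes (chr7:45705088-45710203, plus strand, overlapping Sphk2) and had 16.2 to 82.3 CPM at ZT5 (median 56.1) and 2.98 to 8.00 CPM at ZT17 (median 4.00). No ZT17 mouse reached the lowest ZT5 mouse (log2 fold change -3.55 ± 0.32, adjusted p = 7.73e-07). Its relatives Tef and Hlf did not pass (log2 fold change 0.02 ± 0.14, adjusted p = 0.947 for Tef and log2 fold change 0.22 ± 0.08, adjusted p = 0.0718 for Hlf), though Hlf passed without HFD ZT5 replicate 2 or 3 (adjusted p = 0.0471 and 0.0297). Nfil3 (E4BP4), which represses at the same boxes, had 11.9 to 41.9 CPM at ZT5 (median 17.8) and 44.5 to 51 CPM at ZT17 (median 47.8), and its ZT17 values were tight while those of ZT5 spread over more than 3-fold (log2 fold change 1.06 ± 0.24, adjusted p = 0.00432).

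Wee1, a kinase that restrains entry into mitosis, had 3.40 to 7.42 CPM at ZT5 (median 5.56) and 12.4 to 15 CPM at ZT17 (median 14.2) (log2 fold change 1.39 ± 0.16, adjusted p = 1.31e-05). Usp2, a deubiquitinase, had 1.70 to 17.7 CPM at ZT5 (median 7.45) and 27.9 to 34.9 CPM at ZT17 (median 30.1) (log2 fold change 1.76 ± 0.34, adjusted p = 0.00130). Tsku, the secreted protein tsukushi, had 16.3 to 59.8 CPM at ZT5 (median 43) and 151 to 230.0 CPM at ZT17 (median 171) (log2 fold change 2.25 ± 0.27, adjusted p = 1.53e-05). In all 3 the groups did not overlap. Lonrf3 rose by a log2 fold change of 2.06 and Leo1, a subunit of the PAF1 complex, by 0.72, without overlap. Por, the reductase that passes electrons to cytochromes P450, had 264 CPM at ZT5 and 329 CPM at ZT17 in the median and did not pass (adjusted p = 0.0536), though it passed without any of 3 single libraries (adjusted p from 0.0172, without HFD ZT5 replicate 3, to 0.0427, without Ctr ZT17 replicate 2). Of the 25 clock genes and outputs, 12 were higher (48% against 9.63% of all genes) and 3 lower (12%, near the 10.4% of all genes).

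Within ZT5, the levels of some clock genes went with the replicate number in both diets. Per2 had 8.22 CPM in Ctr replicate 1 and 5.51 CPM in HFD replicate 1, against 19.5 and 14.5 CPM in replicate 3. Dbp had 39.0 and 16.2 CPM in replicate 1 and 65.9 and 82.3 CPM in replicate 3. Arntl ran opposite, with 7.04 and 10.3 CPM in replicate 1 and 2.01 and 1.87 CPM in replicate 3. Replicate 2 lay between them in each case. These 3 genes were chosen after their values were seen, and what the numbers stand for is not given in the labels. In each of the 3 genes the groups of ZT5 and ZT17 did not overlap.

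The largest rises outside the clock included genes of lipid synthesis. Among called protein-coding genes with a mean of at least 1 CPM and groups that did not overlap, the 10 largest rises were, by log2 fold change, E030018B13Rik (4.74), Thrsp (4.19), Nat8f6 (3.92), Pnpla3 (3.75), Lingo4 (3.23), Chrna4 (3.07), Eif4ebp3 (3.00), Aacs (2.96), Nat8f5 (2.85) and Cry1 (2.78). Thrsp, also called Spot14, is a lipogenic protein induced by thyroid hormone and carbohydrate (chr7:97412938-97417730, minus strand). It had 68.6 to 192 CPM at ZT5 (median 112) and 1833 to 2802 CPM at ZT17 (median 2148). The lowest ZT17 mouse was over 9-fold above the highest ZT5 mouse, and the fitted rise was 18.3-fold (log2 fold change 4.19 ± 0.21, adjusted p = 1.85e-09). Aacs, the cytosolic ligase that returns acetoacetate to lipid synthesis, had 24 to 54.8 CPM at ZT5 (median 43.1) and 189.7 to 434 CPM at ZT17 (median 305), without overlap (log2 fold change 2.96 ± 0.24, adjusted p = 2.27e-07). Eif4ebp3 encodes a translation repressor of the 4E-BP family and had 0.352 to 2.01 CPM at ZT5 (median 0.937) and 4.79 to 11.9 CPM at ZT17 (median 7.53). Chrna4, a nicotinic acetylcholine receptor subunit, had 2.34 to 3.71 CPM at ZT5 (median 3.55) and 14.8 to 43.1 CPM at ZT17 (median 23). Nat8f5 and Nat8f6 are N-acetyltransferase-like genes that overlap each other, and E030018B13Rik overlaps Klf13, so how reads were shared between these neighbours is uncertain. Lingo4, E030018B13Rik, Nat8f6 and Pnpla3 were under 1 CPM in every ZT5 mouse, where a fold depends on few reads.

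By the same rule, the 10 largest falls were, by log2 fold change, Nr1d1 (-5.12), Ppp1r3g (-4.74), Dbp (-3.55), Rgs16 (-3.27), Tesmin (-2.99), Mt1 (-2.83), Cables1 (-2.61), Il1rn (-2.59), Trib3 (-2.58) and Adamts6 (-2.57). Rgs16, a brake on G protein signalling, had 18.6 to 167 CPM at ZT5 (median 29.9) and 2.06 to 9.93 CPM at ZT17 (median 4.42), and the 6 ZT5 mice spread almost 9-fold. Mt1, the metal-binding metallothionein that glucocorticoids and zinc induce, had 45.1 to 278 CPM at ZT5 (median 120.4) and 10.5 to 24.5 CPM at ZT17 (median 17.8) (log2 fold change -2.83 ± 0.37, adjusted p = 3.15e-05). Trib3, a pseudokinase downstream of ATF4, had 10.7 to 19.7 CPM at ZT5 (median 12.9) and 1.75 to 3.56 CPM at ZT17 (median 2.23), with tight groups that did not overlap (log2 fold change -2.58 ± 0.19, adjusted p = 7.08e-08). Il1rn, the interleukin 1 receptor antagonist, had 2.57 CPM at ZT5 and 0.554 CPM at ZT17 in the median. Tesmin, Cables1 and Adamts6 were low, at medians from 1.85 to 3.32 CPM at ZT5 and under 0.5 CPM at ZT17.

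**Figure D2:**
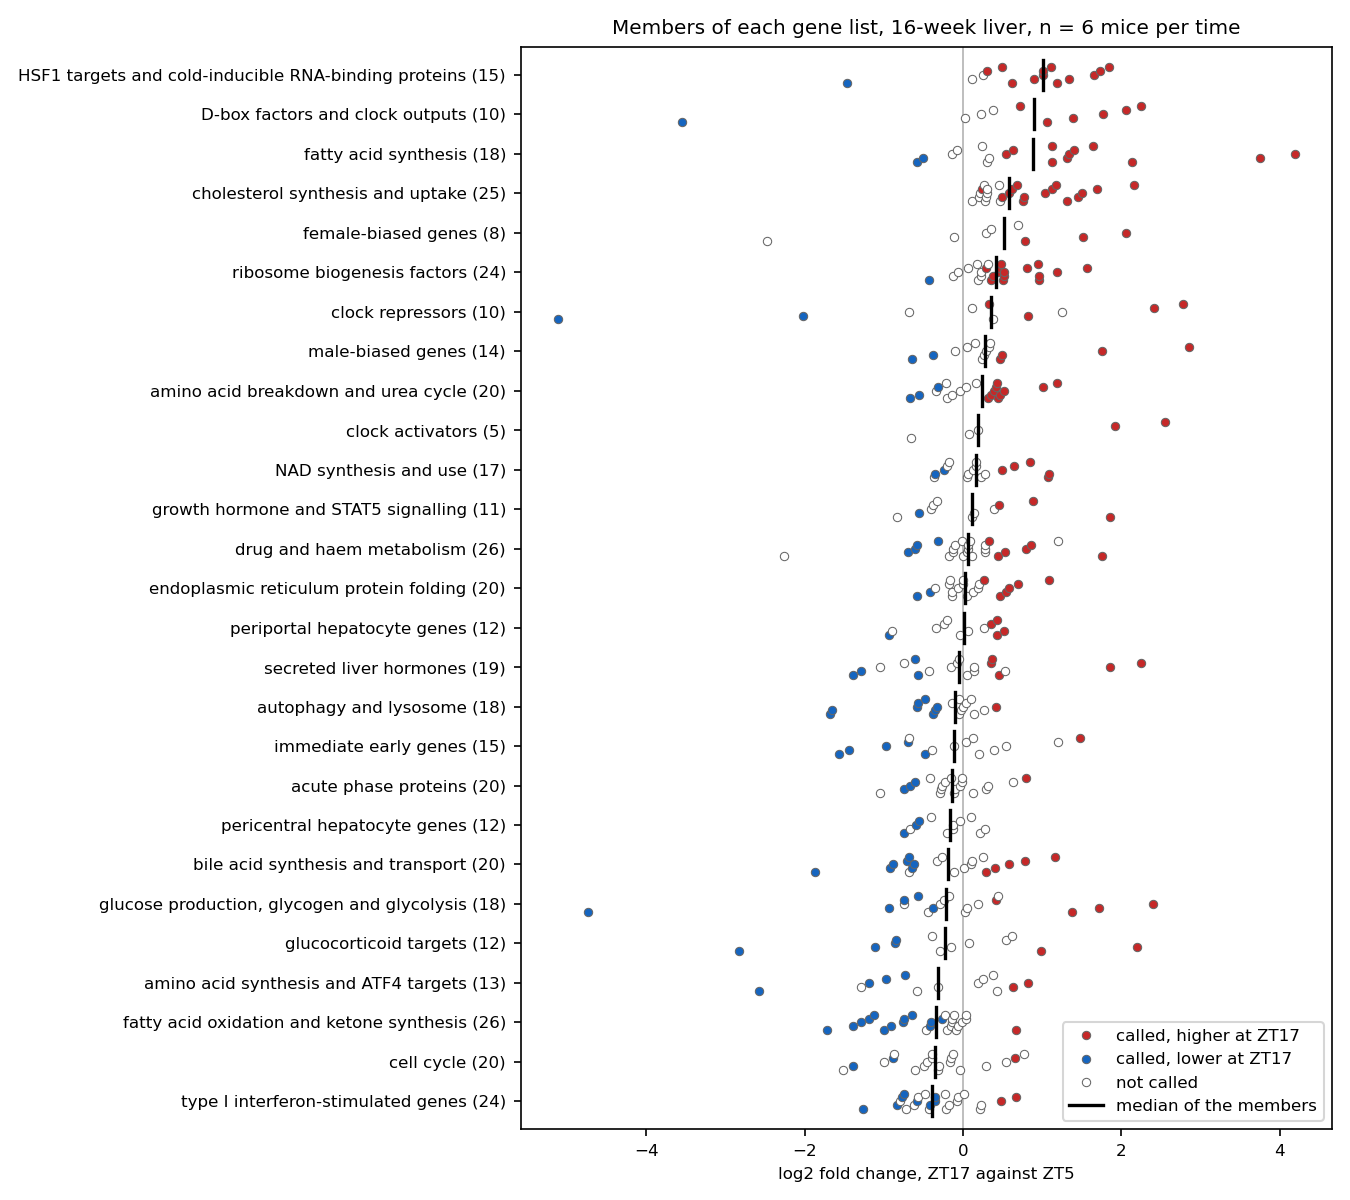
Log2 fold change (ZT17 against ZT5, x axis) of every tested member of 27 gene lists, with the number tested in brackets, ordered by the median, which is the black bar. Filled points passed an adjusted p below 0.05 (red higher, blue lower) and open points did not. Medians run from -0.39 for type I interferon-stimulated genes to 1.00 for the HSF1 and cold-inducible list.

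Of 18 fatty acid synthesis genes, 11 rose (61.1%, against 9.63% of all genes) and 2 fell, and the median log2 fold change was 0.88 against -0.02 for all genes. Srebf1, the factor that drives the pathway, had 147 to 252 CPM at ZT5 (median 216) and 393 to 565 CPM at ZT17 (median 511) (log2 fold change 1.31 ± 0.13, adjusted p = 1.52e-06). Fasn, fatty acid synthase, had 338 to 665 CPM at ZT5 (median 510.4) and 1449 to 2749 CPM at ZT17 (median 2240), with every ZT17 mouse more than 2-fold above the highest ZT5 mouse (log2 fold change 2.14 ± 0.17, adjusted p = 2.27e-07). Acacb, the mitochondrial acetyl-CoA carboxylase, rose by 1.64 and Acly, the ATP citrate lyase, by 1.12, while the cytosolic carboxylase Acaca rose by 0.54 with overlapping groups. Pnpla3, a lipid droplet lipase, had 0 to 0.352 CPM at ZT5 (median 0.154) and 0.5 to 5.50 CPM at ZT17 (median 2.16) (log2 fold change 3.75 ± 0.51, adjusted p = 5.03e-05). Elovl6 and Pklr (liver pyruvate kinase) also rose, by 1.34 and 1.40. Scd1, the stearoyl-CoA desaturase of liver, did not pass (log2 fold change 0.30 ± 0.18, adjusted p = 0.263). Those that fell were Elovl5 (log2 fold change -0.58 ± 0.12, adjusted p = 0.00184), an elongase of polyunsaturated fatty acids, and Insig2 (log2 fold change -0.50 ± 0.12, adjusted p = 0.00768), which holds SREBPs in the endoplasmic reticulum. Insig2 was not called without replicate number 1 (adjusted p = 0.199), where 1 member of the list fell.

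Of 25 genes of cholesterol synthesis and uptake, 15 rose (60% against 9.63% of all genes), 0 fell, and the median was 0.58. With each single library left out, 13 to 17 rose. Mvd, the mevalonate decarboxylase, had 12.4 to 32.4 CPM at ZT5 (median 18.8) and 62.4 to 107 CPM at ZT17 (median 92.6), and the groups did not overlap (log2 fold change 2.16 ± 0.19, adjusted p = 5.26e-07). Fdps, the farnesyl diphosphate synthase, was low in these counts and rose by 1.51 (adjusted p = 3.99e-04). Insig1, a target and brake of SREBP, had 165 to 434 CPM at ZT5 (median 313) and 699 to 928 CPM at ZT17 (median 840.3) (log2 fold change 1.46 ± 0.15, adjusted p = 3.92e-06). Srebf2, the factor of this pathway, did not pass (log2 fold change 0.26 ± 0.09, adjusted p = 0.0637). It passed with DESeq2 and without Ctr ZT5 replicate 1 or Ctr ZT17 replicate 2 (adjusted p = 0.0449 and 0.0139 for the latter).

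Genes of fatty acid oxidation and ketone synthesis had 13 of 26 lower (50% against 10.4% of all genes), 1 higher and a median of -0.34. Cpt1a, the gate of fatty acid entry into mitochondria, had 410.1 to 505 CPM at ZT5 (median 445) and 192 to 231 CPM at ZT17 (median 206) (log2 fold change -1.12 ± 0.09, adjusted p = 1.28e-07). The highest ZT17 mouse was well under the lowest ZT5 mouse. Ppara, the fasting-activated receptor, fell by 0.65 on the log2 scale with groups that overlapped (adjusted p = 0.00615). Plin2, a lipid droplet coat protein, had 512 to 852 CPM at ZT5 (median 613) and 302 to 334 CPM at ZT17 (median 324) (log2 fold change -1.0 ± 0.10, adjusted p = 2.25e-06). Called members with the largest falls were Cyp4a31 (log2 fold change -1.72 ± 0.36, adjusted p = 0.00220), Angptl4 (log2 fold change -1.39 ± 0.25, adjusted p = 6.60e-04) and Fgf21 (log2 fold change -1.28 ± 0.36, adjusted p = 0.0167, but 0.170 with all 36 libraries of the age and up to 0.201 without a replicate number). Angptl4 is a circulating inhibitor of lipoprotein lipase and Fgf21 a fasting hormone, here at medians of 1.53 CPM at ZT5 and 0.673 CPM at ZT17. The Cyp4a genes are near-identical copies, and Acot1, the single member that rose, has close copies too (log2 fold change 0.67 ± 0.16, adjusted p = 0.00546). The genes of the inner β-oxidation steps Acadm, Acadl, Hadha and Hadhb had log2 fold changes between -0.20 and -0.09 and did not pass.

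Of 18 genes of glucose production, glycogen and glycolysis, 4 rose (22.2% against 9.63% of all genes), 5 fell (27.8% against 10.4%) and the median was -0.21. Ppp1r3b (GL), which targets protein phosphatase 1 to glycogen, had 132 to 186 CPM at ZT5 (median 178) and 424 to 663 CPM at ZT17 (median 540.1), with no overlap (log2 fold change 1.72 ± 0.13, adjusted p = 8.00e-08). Ppp1r3g, another glycogen-targeting subunit, ran opposite, with 10.7 to 61.9 CPM at ZT5 (median 16.1) and 0.0608 to 3.71 CPM at ZT17 (median 0.611) (log2 fold change -4.74 ± 0.61, adjusted p = 3.23e-05). Its ZT5 values spread almost 6-fold but stayed above every ZT17 mouse, and without HFD ZT17 replicate 3 the log2 fold change was -5.65. The gluconeogenic genes Pck1 and G6pc fell. Pck1 had 3091 to 4544 CPM at ZT5 (median 3335) and 795 to 2619 CPM at ZT17 (median 1888) (log2 fold change -0.93 ± 0.21, adjusted p = 0.00480) and G6pc had 815 to 1342 CPM at ZT5 (median 876) and 396 to 729.9 CPM at ZT17 (median 553) (log2 fold change -0.74 ± 0.15, adjusted p = 0.00170). Pfkfb1, which sets fructose 2,6-bisphosphate, rose by 1.37.

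Bile acid and sterol transport genes went in both directions, with 5 of 20 higher (25% against 9.63%), 7 lower (35% against 10.4%) and a median of -0.19. Without replicate number 1, 2 and 3 in turn, the rises were 2, 3 and 3 and the falls 7, 6 and 6. Cyp7a1, the rate-limiting enzyme of bile acid synthesis, had 23.2 to 155 CPM at ZT5 (median 57) and 126 to 193 CPM at ZT17 (median 182) with overlapping groups (log2 fold change 1.16 ± 0.33, adjusted p = 0.0205). Akr1d1, a later enzyme of the route, and Cyp7b1, the oxysterol hydroxylase of the alternative route, rose by 0.79 and 0.58, and Cyp8b1, which sets the cholic acid share, did not pass (log2 fold change -0.26 ± 0.17, adjusted p = 0.325). The canalicular exporters were lower. Abcg8 had 95.9 to 143 CPM at ZT5 (median 112) and 26 to 38.7 CPM at ZT17 (median 32) (log2 fold change -1.87 ± 0.12, adjusted p = 1.55e-08) and its partner in sterol export, Abcg5, 57.6 to 90.8 CPM at ZT5 (median 64.8) and 31.9 to 41 CPM at ZT17 (median 37.3) (log2 fold change -0.89 ± 0.11, adjusted p = 1.48e-05). These neighbours overlap each other. Abcb4, the phospholipid exporter, fell by 0.93 on the log2 scale (266 to 369 CPM at ZT5 (median 314) and 152 to 182 CPM at ZT17 (median 166)), and Abcb11, the bile salt export pump, by 0.62. For all 4 exporters the groups did not overlap.

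Of 15 genes in the list of HSF1 targets and cold-inducible RNA-binding proteins, 12 rose (80% against 9.63%), 1 fell, and the median was 1.00, the highest of the 27 lists. Hsph1 (HSP110) had 24.2 to 55.1 CPM at ZT5 (median 34.6) and 95.2 to 138 CPM at ZT17 (median 118) (log2 fold change 1.73 ± 0.17, adjusted p = 1.63e-06). Hspa1b, the inducible HSP70 whose promoter element is shown above, had 6.72 to 39.8 CPM at ZT5 (median 18.6) and 41.1 to 91.7 CPM at ZT17 (median 63.5) (log2 fold change 1.84 ± 0.34, adjusted p = 7.90e-04). It is nearly identical to Hspa1a, which had a log2 fold change of 1.65, and how reads were shared between the copies is uncertain. Hsp90aa1, the inducible HSP90, had 120.0 to 231 CPM at ZT5 (median 137) and 313 to 452 CPM at ZT17 (median 411) (log2 fold change 1.34 ± 0.15, adjusted p = 7.31e-06), and Hspa8, the constitutive HSP70, 648 to 1181 CPM at ZT5 (median 901) and 1715 to 2249 CPM at ZT17 (median 1902) (log2 fold change 1.11 ± 0.14, adjusted p = 2.06e-05). Hspe1, the mitochondrial HSP10, rose by 0.62 and the HSP40 gene Dnajb1 by 1.00. The 1 fall was Cirbp, the cold-inducible RNA-binding protein, with 15.4 to 21.2 CPM at ZT5 (median 18.3) and 5.88 to 7.72 CPM at ZT17 (median 6.51) (log2 fold change -1.46 ± 0.11, adjusted p = 7.53e-08). Its relative Rbm3, also cold-inducible, did not pass (log2 fold change 0.11 ± 0.13, adjusted p = 0.602), and neither did Hsf1 (log2 fold change 0.26 ± 0.13, adjusted p = 0.173).

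Among 20 genes of protein folding in the endoplasmic reticulum, 6 rose (30% against 9.63%) and 2 fell (10% against 10.4%), with a median of 0.03. Dnajb9 (ERdj4) had 29.7 to 56.5 CPM at ZT5 (median 36.2) and 60.1 to 121 CPM at ZT17 (median 82.9) (log2 fold change 1.09 ± 0.15, adjusted p = 6.41e-05), and Hspa5 (BiP) 549 to 698 CPM at ZT5 (median 668) and 723 to 1104 CPM at ZT17 (median 946) (log2 fold change 0.54 ± 0.10, adjusted p = 8.04e-04). Manf and Hyou1 rose by 0.69 and 0.58, and Xbp1, a factor of the unfolded protein response, by 0.46 (adjusted p = 0.0224, and up to 0.0631 without single libraries, here HFD ZT17 replicate 1). Hsp90b1 (GRP94) fell by 0.58 on the log2 scale and Pdia6, a disulfide isomerase, by 0.42.

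Of 24 ribosome assembly factors, 15 rose (62.5% against 9.63%) and 1 fell, with a median of 0.41. Rrp12, needed for export of pre-ribosomes, had 4.22 to 6.95 CPM at ZT5 (median 5.03) and 12.3 to 16.8 CPM at ZT17 (median 16.3) (log2 fold change 1.57 ± 0.14, adjusted p = 5.61e-07). Nolc1, a nucleolar chaperone, had 14 to 26.7 CPM at ZT5 (median 21.4) and 40.1 to 54.1 CPM at ZT17 (median 46.3) (log2 fold change 1.18 ± 0.13, adjusted p = 4.23e-06). Nop58 and Nop56, core proteins of box C/D particles, rose by 0.96 and 0.95. The 1 fall was Ubtf, the RNA polymerase I factor (log2 fold change -0.43 ± 0.08, adjusted p = 6.32e-04). Of the proteins of the cytosolic ribosome itself, 2 of 76 rose (2.63% against 9.63%) and 0 fell, with a median of 0.20. That count moved with single libraries. It was 43 without HFD ZT5 replicate 3, 7 without HFD ZT17 replicate 2 and 1 without any of 7 other libraries. With DESeq2 it was 8. Of 77 mitochondrial ribosomal proteins, 20 rose (26.0% against 9.63%) and 0 fell, at a like median of 0.20. That count was 11 without Ctr ZT5 replicate 1 and 12 without Ctr ZT17 replicate 2. Of 80 nuclear genes of the respiratory chain, 9 rose (11.2% against 9.63%) and 1 fell, but 42 rose without HFD ZT5 replicate 3 and 2 without Ctr ZT5 replicate 1. It was 3 without Ctr ZT5 replicate 2, 5 without Ctr ZT17 replicate 1 and 4 without Ctr ZT17 replicate 2. Without HFD ZT17 replicate 2 it was 15. These counts join both maternal diets. With edgeR's quasi-likelihood test, the unadjusted p of the diet interaction was below 0.05 in 52 of these 80 genes, against 11.3% of all genes. The same held for 41 of the 76 cytosolic and 29 of the 77 mitochondrial ribosomal proteins. None passed the correction, and these lists were picked after their counts were seen. The mitochondrially encoded genes had 1 of 13 higher, mt-Co3 (log2 fold change 0.73 ± 0.24, adjusted p = 0.0440). The count was 4 without HFD ZT5 replicate 3, 3 without HFD ZT17 replicate 2, 2 without HFD ZT17 replicate 1 and 0 without any of 5 other libraries. The call of mt-Co3 was lost when any of 9 single libraries was left out, with an adjusted p up to 0.128 (without HFD ZT17 replicate 1).

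Of 18 autophagy and lysosome genes, 8 fell (44.4% against 10.4%) and 1 rose, with a median of -0.10. Ulk1, the kinase that starts autophagosome formation, had 109 to 156 CPM at ZT5 (median 126) and 37.1 to 50.2 CPM at ZT17 (median 41.1) (log2 fold change -1.65 ± 0.10, adjusted p = 1.12e-08). Gabarapl1, a membrane-conjugated ATG8 protein, had 340.3 to 481 CPM at ZT5 (median 407) and 111 to 138 CPM at ZT17 (median 128) (log2 fold change -1.68 ± 0.10, adjusted p = 7.25e-09). The groups lay more than 2-fold apart in both. Wipi1 fell by 0.59 and the cargo receptor Sqstm1 (p62) by 0.48 on the log2 scale. Bnip3, a mitophagy receptor, was the 1 that rose (0.42). The lysosomal genes Lamp1, Ctsd and Ctsb had changes between -0.05 and 0.10 and did not pass.

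Genes of amino acid use moved in both directions. In amino acid breakdown and the urea cycle 10 of 20 rose (50% against 9.63%) and 3 fell (15% against 10.4%), with a median of 0.24. That count of rises was 6 without Ctr ZT5 replicate 1, Ctr ZT17 replicate 3, HFD ZT5 replicate 1 or HFD ZT17 replicate 2. Asl, argininosuccinate lyase, had 338 to 480.1 CPM at ZT5 (median 382) and 802 to 1013 CPM at ZT17 (median 868) (log2 fold change 1.18 ± 0.10, adjusted p = 3.72e-07). Prodh, proline dehydrogenase, rose by 1.01 and Cps1, the entry enzyme of the urea cycle, by 0.51 (adjusted p = 0.0325, and up to 0.0833 without single libraries, here HFD ZT5 replicate 1), while Got1 fell by 0.67 on the log2 scale. Of 17 NAD genes, 5 rose (29.4% against 9.63%) and 2 fell (11.8% against 10.4%), the falls being 1 without any of 7 single libraries. Nampt, the rate-limiting enzyme of NAD salvage, had 29.1 to 44.7 CPM at ZT5 (median 38) and 73.3 to 91.9 CPM at ZT17 (median 77.1) (log2 fold change 1.08 ± 0.10, adjusted p = 7.25e-07). Nmrk1, the nicotinamide riboside kinase, had 11.7 to 17.1 CPM at ZT5 (median 14.2) and 25.1 to 34.9 CPM at ZT17 (median 30.5) (log2 fold change 1.08 ± 0.10, adjusted p = 1.70e-06), also without overlap. Sirt1 and Sirt7 did not pass, and Sirt3 fell by 0.24 on the log2 scale with overlapping groups (adjusted p = 0.0314, and up to 0.0813 without single libraries, here Ctr ZT17 replicate 2). Of 13 genes of amino acid synthesis and ATF4 targets, 2 rose (15.4% against 9.63%) and 4 fell (30.8% against 10.4%). Atf4 itself rose (log2 fold change 0.63 ± 0.13, adjusted p = 0.00163) and so did Ddit3 (CHOP, 0.82), while their known targets Trib3, Chac1 and Sesn2 had log2 fold changes of -2.58, -1.19 and -0.97. Chac1 was not called without some single libraries (adjusted p up to 0.103, without Ctr ZT5 replicate 1). The symbol Ddit3 stands on more than 1 row of the table and the gene overlaps Mars.

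Shares of signalling and stress lists are again read against 9.63% of all genes higher and 10.4% lower. Of 12 glucocorticoid targets, 2 rose (Cdkn1a, log2 fold change 2.20 ± 0.34, adjusted p = 1.56e-04, and Fkbp5, log2 fold change 0.98 ± 0.15, adjusted p = 1.28e-04) and 4 fell (Mt1, Gadd45g (-1.11), Sgk1 (-0.85) and Klf9 (-0.84)). Among 15 immediate early genes 1 rose (6.67%, and 2 without Ctr ZT5 replicate 1), Atf3 (1.47). In the same list 5 fell (33.3%, and 2 to 4 members without a replicate number), led by Egr1 (log2 fold change -1.57 ± 0.32, adjusted p = 0.00196) and Junb (log2 fold change -1.44 ± 0.19, adjusted p = 3.30e-05). Egr1 had overlapping groups and ran from -2.13 to -0.74 over the planned settings. It was not called without replicate number 1 (adjusted p = 0.0766). Of 11 growth hormone and STAT5 genes 3 rose (27.3%), Cish (1.85), Igfals (0.89) and Igf1 (log2 fold change 0.46 ± 0.09, adjusted p = 0.00167), and 1 fell, Stat5b (-0.55). Cish, a suppressor of cytokine signalling, had 1.10 to 4.73 CPM at ZT5 (median 2.45) and 2.03 to 32 CPM at ZT17 (median 6.19), with 1 mouse at the top far from the rest. Without that mouse, HFD ZT17 replicate 1, its log2 fold change was 1.07 (adjusted p = 0.0458). Of 14 male-biased genes 4 rose (28.6%) and 2 fell (14.3%), but 1 fell without any 1 of 8 libraries. Of 8 tested female-biased genes 3 rose (37.5%) and 0 fell, or 1 without Ctr ZT5 replicate 1. The largest rises of the male-biased list were Nat8f5 (listed there as Cml5) and Selenbp2, which had 285 to 681 CPM at ZT5 (median 405) and 952 to 1688 CPM at ZT17 (median 1461) (log2 fold change 1.75 ± 0.18, adjusted p = 2.78e-06). Of 19 secreted hormones 5 rose (26.3%) and 4 fell (21.1%), among the rises Angptl8, which feeding induces, with 16.7 to 53.8 CPM at ZT5 (median 21.1) and 28.1 to 165 CPM at ZT17 (median 95.3) (log2 fold change 1.86 ± 0.37, adjusted p = 0.00169). Angptl8 was not called without replicate number 2 (adjusted p = 0.0503).

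Drug and haem metabolism had 6 of 26 genes higher (23.1% against 9.63% of all genes) and 4 lower (15.4% against 10.4%). Alas1, the rate-limiting enzyme of haem synthesis, had 113 to 337 CPM at ZT5 (median 218) and 296 to 1142 CPM at ZT17 (median 713) (log2 fold change 1.76 ± 0.36, adjusted p = 0.00182). Its ZT17 mice lay either between 296 and 387 CPM or between 1040 and 1142 CPM, so none was near the median. Over the planned settings its log2 fold change went down to 0.98, and it was not called without replicate number 1 (adjusted p = 0.061). Gsta3, a glutathione transferase, rose by 0.79 without overlap and Cyp2a5 by 0.85. The exporters Abcc2 and Abcc3 fell by 0.59 and 0.60 on the log2 scale. Acute phase proteins had 1 of 20 higher (5%), but 3 without HFD ZT5 replicate 3, and 3 lower (15%), and those 3 were the fibrinogen chains Fga (-0.74), Fgb (-0.67) and Fgg (-0.61). Fga, at one locus with the others, had 3606 to 5368 CPM at ZT5 (median 4816) and 2416 to 3366 CPM at ZT17 (median 2767). Of 24 type I interferon-stimulated genes 2 rose (8.33%) and 8 fell (33.3%), led by Usp18 (log2 fold change -1.26 ± 0.25, adjusted p = 0.00135), and the list had the lowest median (-0.39). The falls were 2, 4 and 5 without replicate number 1, 2 and 3, so this count depends on which mice are used. Cell cycle genes had 1 of 20 higher (5%) and 2 lower (10%). The rises were 2 without Ctr ZT5 replicate 2 or HFD ZT17 replicate 1, and the falls 1 without Ctr ZT17 replicate 2. Of 12 pericentral genes 3 fell (25%) and 0 rose, and of 12 periportal genes 4 rose (33.3%) and 1 fell. The periportal count of rises was 1 or 2 when any of 7 single libraries was left out, and that of falls 2 without Ctr ZT5 replicate 1 or Ctr ZT17 replicate 3. Glul, which marks the innermost pericentral cells, did not pass (log2 fold change 0.10 ± 0.14, adjusted p = 0.679).

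Of 7 Kupffer cell and macrophage markers 3 fell (42.9% against 10.4% of all genes; Marco, -0.94, Cd5l, -0.52, and Timd4, -0.51) and 0 rose, and their summed level was 192 to 352 CPM at ZT5 and 214 to 252 CPM at ZT17. Of 5 B cell markers 4 fell, with a median of -1.44, but the sums were only 5.00 to 10.4 CPM at ZT5 and 4.39 to 11.2 CPM at ZT17, and 2 fell without Ctr ZT5 replicate 1. The same count of 2 was left without Ctr ZT17 replicate 2, HFD ZT5 replicate 1 or HFD ZT17 replicate 2. Neutrophil markers summed to at most 5.00 CPM and 1 of 4 tested fell (S100a9, log2 fold change -1.39 ± 0.42, adjusted p = 0.0261, and up to 0.0767 without single libraries, here HFD ZT5 replicate 3). The Kupffer sums of the times overlapped, and the part of immune cells in the levels of the interferon genes, of which 8 of 24 fell, was not tested. The 1 adipocyte marker tested, Plin4, fell, with 4.54 to 9.51 CPM at ZT5 (median 6.13) and 2.74 to 4.20 CPM at ZT17 (median 3.56) (log2 fold change -0.88 ± 0.19, adjusted p = 0.00274). In the fit with all 36 libraries of the age, Plin4 and Marco kept their log2 fold changes (-0.89 and -0.94) but did not pass (adjusted p = 0.111 and 0.0531). Endothelial, stellate, T and NK, and erythroid markers had 0 called (1 T and NK marker fell without Ctr ZT5 replicate 1 and with DESeq2), and cholangiocytes 1 of 5, Krt19 (log2 fold change 0.99 ± 0.33, adjusted p = 0.0413), which was not called when any 1 of 8 libraries was left out (adjusted p up to 0.128, without Ctr ZT17 replicate 2). Timd4 was not called when any 1 of 5 libraries was left out (adjusted p between 0.0581 and 0.0778). The summed stellate markers reached 327 CPM in Ctr ZT5 replicate 2, the highest library.

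**Figure D3:**
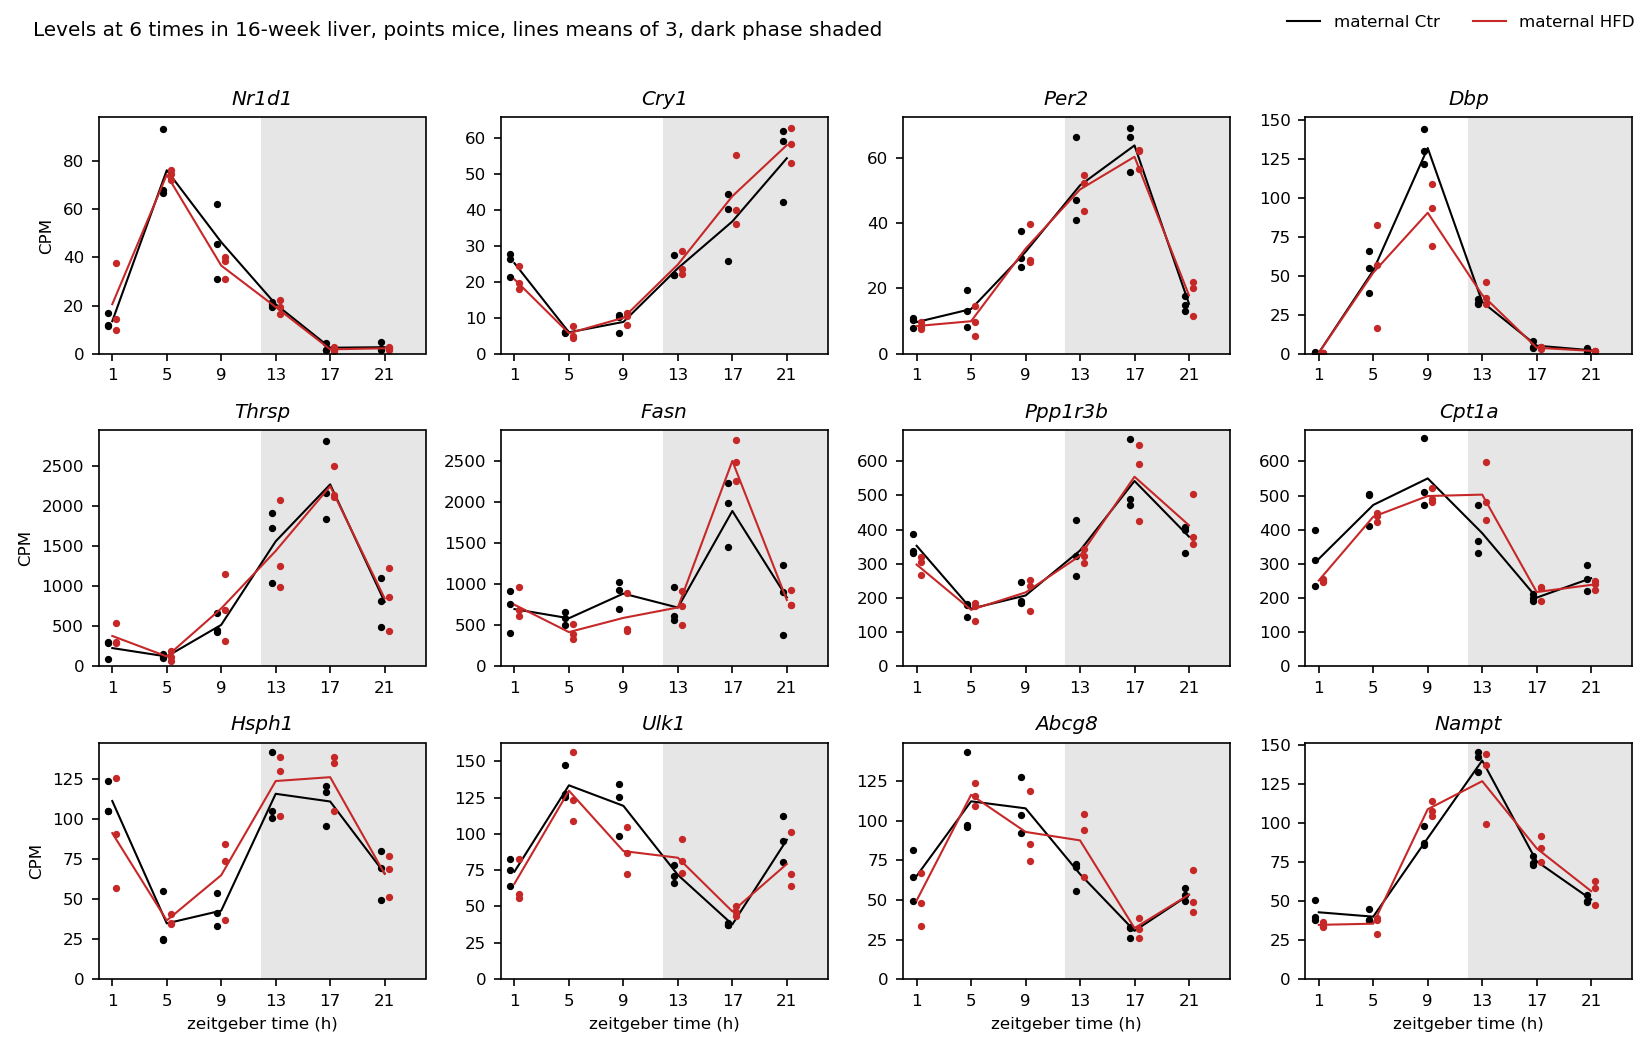
Levels (CPM, linear axes from 0) of 12 genes at the 6 times of the 16-week series, scaled over 36 libraries, with points for mice, lines for means of 3 mice per diet (black Ctr, red HFD) and the dark phase shaded. Per2, Thrsp, Fasn and Ppp1r3b have their highest mean over both diets at ZT17, Nr1d1, Ulk1 and Abcg8 at ZT5, and Cry1, Dbp, Cpt1a and Nampt at other times.

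The other 4 times place these 2 within the day. Of the 1689 genes higher at ZT17, 1004 (59.4%) had their highest mean of the 6 times at ZT17 and 333 (19.7%) at ZT13, against 17.7% and 15.2% of all genes tested. Of the 1829 genes lower at ZT17, 1143 (62.5%) were highest at ZT5 and 415 (22.7%) at ZT9, against 18.3% and 19.7% of all genes tested. The calls used these same ZT5 and ZT17 values, so a maximum there is in part fixed by the choice. Among clock genes, Per2 had its highest mean at ZT17, Cry1 and Arntl at ZT21, and Dbp, Nr1d2, Per3 and Wee1 at ZT9. The lowest mean of Dbp was at ZT1, so ZT17 lay between its maximum and minimum. Tef and Hlf, which did not pass, were highest at ZT9 and ZT13. Hspa1b, Hsph1, Rrp12, Nolc1, Nampt and Nmrk1 had their highest mean at ZT13, just after lights off, and Mvd, Fasn, Asl and Igf1 at ZT17.

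**Figure D4:**
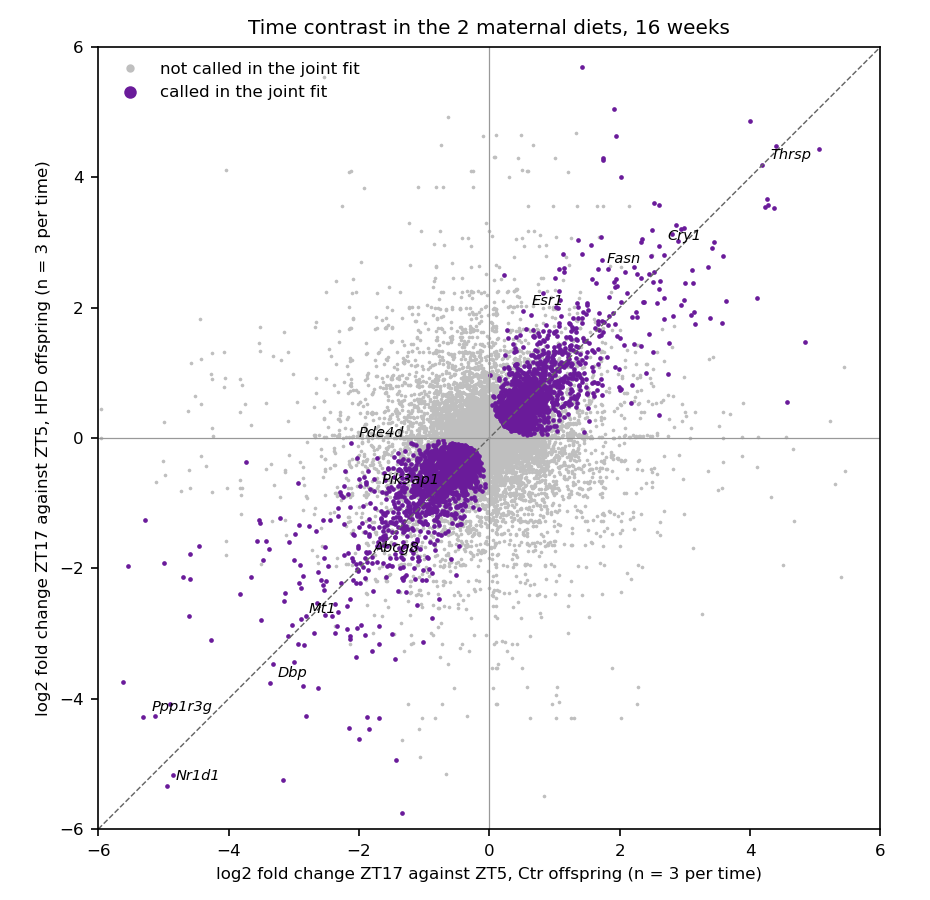
Log2 fold change of ZT17 against ZT5 in Ctr offspring (x axis) and in HFD offspring (y axis), 3 mice per time in each, 1 point per gene, purple where called in the joint fit, which draws those points toward the dashed line of equality. Axes end at 6 and leave out 4 genes. Nr1d1, Dbp, Thrsp and Cry1 lie near the line.

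The time contrast was compared between the maternal diets, whose mice are separate animals. With a diet by time interaction, 0 of 17545 genes (0%) passed an adjusted p below 0.05 with edgeR's quasi-likelihood test, 1987 (11.3%) had an unadjusted p below 0.05, and the lowest adjusted p was 0.163. DESeq2 called 53 genes on the same counts. Fitted alone, the Ctr mice gave 2069 genes (11.1%) and the HFD mice 1881 (10.3%), of which 963 were called in both (46.5% of Ctr calls, 51.2% of HFD calls) and 958 in the same direction. Of the Ctr calls 89.4% had the same sign in HFD mice, and of the HFD calls 93.3% had the same sign in Ctr mice, against 64.8% of all genes. Log2 fold changes of Nr1d1 were -4.94 in Ctr and -5.34 in HFD offspring, of Cry1 2.61 in Ctr and 2.94 in HFD offspring and of Dbp -3.37 in Ctr and -3.76 in HFD offspring. Those of Thrsp were 4.19 in Ctr and 4.18 in HFD offspring, and of Cpt1a -1.25 in Ctr and -1.0 in HFD offspring.

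Named by the lowest interaction p, Esr1, which encodes estrogen receptor α, had 0.51 in Ctr and 1.94 in HFD offspring (difference 1.40 ± 0.25, unadjusted p = 3.52e-05, adjusted p = 0.163). Pik3ap1, an adaptor of PI3 kinase, had -1.78 in Ctr and -0.81 in HFD offspring (difference 0.94 ± 0.18, unadjusted p = 5.81e-05, adjusted p = 0.163), and Pde4d, a cAMP phosphodiesterase, -2.13 in Ctr and -0.08 in HFD offspring (difference 2.02 ± 0.38, unadjusted p = 5.85e-05, adjusted p = 0.163). Dct and Rpl21 had opposite signs in the diets, with differences of -2.05 and -1.53. None of the 5 passed the correction. Against the 11.3% of all genes with an unadjusted interaction p below 0.05, the lists had 52 of 80 nuclear genes of the respiratory chain, 41 of 76 cytosolic and 29 of 77 mitochondrial ribosomal proteins, 9 of 13 mitochondrially encoded genes and 6 of 18 fatty acid synthesis genes. These lists were picked after their counts were seen, and the first 4 hold the counts of calls above that moved with single libraries. The values of Fasn were 1.67 in Ctr and 2.59 in HFD offspring, those of Acly 0.68 in Ctr and 1.55 in HFD offspring and those of Acaca 0.16 in Ctr and 0.91 in HFD offspring, chosen after they were seen, and none passed (adjusted p = 0.286, 0.337 and 0.286).

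**Figure D5:**
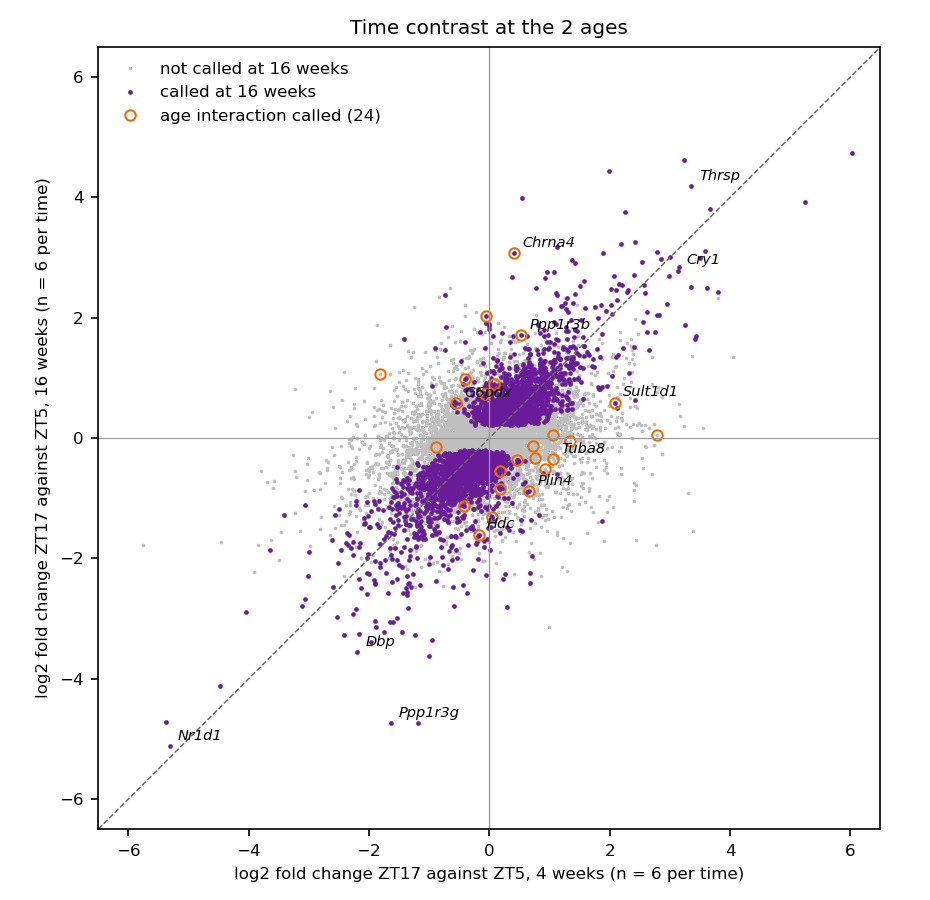
Log2 fold change of ZT17 against ZT5 at 4 weeks (x axis) and at 16 weeks (y axis), 6 mice per time at each age, 1 point per gene tested at both ages, purple where called at 16 weeks. Orange circles mark the 24 genes with a called age interaction, among them Chrna4, Ppp1r3b, Hdc and Sult1d1, while Nr1d1 and Cry1 lie near the dashed line of equality.

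At 4 weeks the same contrast, in 12 other mice, gave 2573 called genes of 16858 (15.3%). Of them 1386 were also called at 16 weeks (53.9% of the 4-week calls, 39.4% of the 16-week calls), 1381 in the same direction. Of the 16-week calls tested at 4 weeks, 90.5% had the same sign there, against 70.5% of all genes tested at both ages. An age by time interaction was called for 24 of 16324 genes (0.147%), 9 with the higher and 15 with the lower value at 16 weeks. The count rests on few mice, since it was 6 without replicate 2 and 0 without replicate 3, and of the 22 called without replicate 1 only 6 were among the 24. The counts of the ages were deposited separately, and age and any difference in their handling cannot be told apart.

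Chrna4 had the lowest p, with log2 fold changes of 3.07 at 16 weeks and 0.41 at 4 weeks (difference 2.65 ± 0.40, adjusted p = 0.00726). Ppp1r3b had 1.72 at 16 weeks and 0.53 at 4 weeks (difference 1.17 ± 0.19, adjusted p = 0.0134), so the glycogen-targeting subunit rose at both ages but more at 16 weeks. Sult1d1, a sulfotransferase, had 0.59 at 16 weeks and 2.09 at 4 weeks (difference -1.52 ± 0.27, adjusted p = 0.0201), the larger rise being the younger one. Tuba8, a tubulin, had -0.35 at 16 weeks and 1.06 at 4 weeks (difference -1.43 ± 0.23, adjusted p = 0.0121) and did not pass at 16 weeks. Cyp3a25, a cytochrome P450, had -0.37 at 16 weeks and 0.46 at 4 weeks (difference -0.85 ± 0.15, adjusted p = 0.0150), a reversal of direction with both ages called. Plin4, a lipid droplet coat protein, had -0.88 at 16 weeks and 0.66 at 4 weeks (difference -1.56 ± 0.33, adjusted p = 0.0429). The clock genes had values of -5.12 at 16 weeks and -5.31 at 4 weeks for Nr1d1, 2.78 at 16 weeks and 3.13 at 4 weeks for Cry1 and -3.55 at 16 weeks and -2.20 at 4 weeks for Dbp. Of all genes tested at 4 weeks, 8.19% were called higher and 7.07% lower at ZT17. By list at 4 weeks, 11 of 25 cholesterol genes, 8 of 18 fatty acid synthesis genes, 11 of 15 genes of the HSF1 list and 9 of 24 ribosome assembly factors were higher, and 4 of 26 fatty acid oxidation genes were lower. The nuclear respiratory chain had 47 of 79 higher at 4 weeks, and at 16 weeks 9 of 80 or, without HFD ZT5 replicate 3, 42 of 80, while the cell cycle list had 12 of 20 lower at 4 weeks and 2 of 20 at 16 weeks. Whether these list counts differ between ages was not tested. Fasn had 2.14 at 16 weeks and 1.28 at 4 weeks. Pck1 had -0.93 at 16 weeks and -0.13 at 4 weeks, and G6pc -0.74 at 16 weeks and -0.03 at 4 weeks. None of these 3 had a called interaction.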

How the data were processed

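Poly-A RNA of liver was sequenced per mouse. The authors aligned reads with HISAT2 (version 2.0.5 in the submitters' processing notes) to GRCm38 and counted uniquely mapped reads per gene with featureCounts (1.5.0-p3), and the deposited values are raw counts without normalization for 54532 genes, 1 table per age. Use of the read strand in counting is not given in the sources used here. Groups followed the sample labels, and 2 further per-sample columns were not used. Some genes of the lists are counted in them but are not reported here by name. Totals (15004280 to 17710981) bound the precision of low genes.

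Genes were kept where no fewer than 50% of the libraries of each of the diets had reads, and were tested with edgeR 4.0.16 (R 4.3.3, TMM factors, quasi-likelihood, diet as covariate, Benjamini-Hochberg adjustment over all genes tested, adjusted p below 0.05). The diet and age interactions were fitted in the same way on 12 and 24 libraries. Alternatives were DESeq2 1.42.0, other scalings and filters, a replicate block, each replicate number and each library left out, and all 36 libraries of the age. Replicate numbers were not taken as pairs.

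The comparison and the gene lists were chosen with earlier results of these data known. Named genes were the 10 largest rises and falls that were protein coding, at 1 CPM or more and without overlap of the groups, all clock list members, up to 3 called members per direction of each other list with its defining genes, and the 5 lowest interaction p for diet and for age. Nothing says that the ages were processed together, and p-values cover the spread between mice of these groups.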

Additional observations from a re-analysis of the deposited data

Results flagged for a closer look

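In 334 groups of 6 libraries checked for a library far from the other 5, 22 had one, and chance alone flags about 1 in 20 groups. Ctr ZT5 replicate 1 stood apart in 7 of them. It had 93.4 CPM of Nr1d1 (nearest other 76.2), 1342 CPM of G6pc (nearest 917.3), 57.0 CPM of Junb, 53.8 CPM of Angptl8 and 49780 CPM of Alb (nearest 75100, above it). Its 10 most abundant genes held 16.4% of counts (nearest 19.2%) and its summed hepatocyte markers were 71610 CPM (nearest 102500). Alb is among those markers, so these flags are not independent of each other.

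Ctr ZT5 replicate 2 stood apart in Abcg5 (90.8 CPM), Sgk1 (59.9 CPM, nearest 29.7) and Glul (657 CPM, nearest 1150). HFD ZT5 replicate 3 stood apart in Rgs16 (166.8 CPM, nearest 68.1), Pck1 (4544 CPM) and Usp18 (18.0 CPM, nearest 9.93). Ctr ZT5 replicate 3 was highest for Tesmin at 3.57 CPM.

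At ZT17, Ctr replicate 1 stood apart in Dbp (8.00 CPM, nearest 4.38) and Por (427 CPM), Ctr replicate 2 in Nop58 (35.8 CPM), HFD replicate 1 in Cish (32.05 CPM, nearest 9.89) and Fgb (3593 CPM), HFD replicate 2 in Ddit3 (9.07 CPM), and HFD replicate 3 in Ppp1r3g (3.71 CPM, nearest 1.12) and Chac1 (1.82 CPM). With each of these libraries left out in turn, the direction of Nr1d1, Dbp, G6pc, Pck1, Cish and Usp18 and their calls were kept. Chac1 was not called without some of them (adjusted p up to 0.103, without Ctr ZT5 replicate 1). Por, not called in the main fit, passed without HFD ZT5 replicate 3 or Ctr ZT17 replicate 2 (adjusted p = 0.0172 and 0.0427). Glul, also not called, turned to a log2 fold change of -0.029 without Ctr ZT5 replicate 2.

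Log2 fold changes differed between the ages by an interaction test in 6 genes named in the report. The differences of 16 and 4 weeks were 2.65 for Chrna4, 1.17 for Ppp1r3b, -1.56 for Plin4, -1.43 for Tuba8, -0.85 for Cyp3a25 and -1.52 for Sult1d1. These calls rest on 24 mice and none was kept without replicate 3.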

How the results depend on the processing

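The 3518 calls, 1689 higher and 1829 lower, stayed within 1.5 times with another tool, scaling or filter, with all 36 libraries and without single libraries, and fell with 8 or 6 libraries. DESeq2 called 3910 genes, upper quartile scaling 3541, no filter 3845 and a fit with all 36 libraries of the age 3629, and leaving out each library gave 2955 to 3644, with 1428 to 1847 higher and 1527 to 1797 lower. Leaving out a replicate number, with 8 libraries left, gave 1924 to 2423 calls, 970 to 1212 higher and 892 to 1211 lower. Chosen after seeing the data, the Ctr mice alone gave 2069 (998 higher, 1071 lower) and the HFD mice alone 1881 (998 higher, 883 lower). A log2 fold change of at least 1 in size left 692. Of 60 counts of list members above 0, 34 moved by over 1.5 times in at least 1 of the fits without a replicate number, where fewer genes were called in all. The rises ran from 12 to 15 for cholesterol, 10 to 11 for fatty acid synthesis, 10 to 11 for the HSF1 list and 8 to 17 for ribosome assembly, and the falls from 8 to 10 for fatty acid oxidation, 6 to 8 for autophagy and 2 to 5 for interferon genes.

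Deviations from the group means correlated at r from -0.02 to 0.12 (median 0.041, 1 of 18 pairs over 0.1) between libraries of the same replicate number, and at -0.092 to 0.071 (median -0.027, 36 pairs) between those of different numbers, so same-numbered libraries were slightly more alike but were not taken as pairs. A replicate block gave 3540 calls, 1 call for the diet interaction and 46 for the age interaction, in place of 0 and 24, and turned no named gene. Of genes not called, Ciart and Por passed under it. The diet interaction gave 53 genes with DESeq2, 441 without a filter and 0 to 26 without a replicate number. The age interaction gave 174 with DESeq2, 574 without a filter and 0 to 22 without a replicate number.

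Of 152 named genes 132 were called, and 100 of these were called with the same sign in all 22 planned settings. No called gene turned its sign in a planned setting. With all 36 libraries of the age, Fgf21, Marco, Krt19, Plin4 and mt-Co3 did not pass (adjusted p = 0.170, 0.0531, 0.0677, 0.111 and 0.126) and Ciart did (0.0109). Genes that were not called turned as follows, on the log2 scale. Without a replicate number, Npas2 ran from -1.18 to 0.17, Rora from -0.065 to 0.20, Per1 from -0.13 to 0.44, Tef from -0.21 to 0.23 and Glul from -0.0073 to 0.18. Without single libraries, Per1 reached -0.011, -0.026, -0.0018 and -0.019, Tef -0.058, -0.0052 and -0.084, and Glul -0.029. In Ctr mice alone Rora was at -0.022, Per1 at -0.18, Scd1 at -0.029 and Rbm3 at -0.20, and in HFD mice alone Glul was at -0.14, Dct at -0.71 and Rpl21 at -0.42. The cause was not tested.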
